A study of Mus musculus with 4 samples.

Results

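The Dlk1-Dio3 domain is an imprinted cluster of the distal part of mouse chromosome 12. Its listed genes are Dlk1, Rtl1 and Dio3, grouped here as paternally expressed, and Meg3, Rian and Mirg, grouped here as maternally expressed. All probes that RefSeq accessions assign to these 6 genes were taken, whatever their values. They came to 8 of the 41174 probes on the array and covered 4 of the 6 genes, with 5 probes for Meg3 and 1 each for Dlk1, Rian and Dio3. Rtl1 and Mirg had no named probe. All 8 were among the 22440 tested. Testing required a probe to be well above background in both pools of HP1γ-null, of wild type or of both. Dio3 and 1 probe of Meg3 (A_52_P99341) passed through the HP1γ-null pools alone, which favours a higher level there. Another Meg3 probe (A_52_P196568) passed through the wild-type pools alone. Counts over the 8 are therefore a description.

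The HP1γ-null pools came from HP1γ-/- embryos, which lack heterochromatin protein 1γ (the product of Cbx3) through a gene-trap allele, and carried a Blimp1-mVenus transgene. The pools they were set against came from wild-type embryos with the same transgene. The mVenus-positive cells, labelled as primordial germ cells, were sorted from genital ridges at embryonic day 11.5. Each genotype had 2 independent RNA pools of 5 to 6 embryos (500 to 3500 sorted cells per embryo), and each pool was hybridised to 1 one-colour Agilent array.

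Imprinted genes are transcribed from 1 parental copy because a control region carries DNA methylation from the egg or the sperm. In this domain the control region lies between Dlk1 and Meg3 and is methylated on the paternal chromosome, and its unmethylated maternal copy keeps the noncoding RNAs Meg3, Rian and Mirg active and the protein genes silent in cis. Primordial germ cells erase such marks as they colonise the genital ridge. Dlk1 encodes a membrane protein with epidermal growth factor repeats that is related to the Notch ligands and holds back adipocyte differentiation. Dio3 encodes the type 3 deiodinase, which inactivates thyroid hormone. Meg3 and Rian are long noncoding RNAs, and Rian is also the host transcript of small nucleolar RNAs. RefSeq places 54 miRNA hairpins between the starts of Meg3 and Dio3, none of which was measured here.

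The 250 bases before the annotated start of each measured gene are shown because Dlk1, Meg3 and Rian were brightest in the same pool whereas Dio3 was not. Whether these sequences bear on the levels was not tested. They are RefSeq sequence of build GRCm38.p6, all on the plus strand of chromosome 12, at chr12:109452573-109452822 for Dlk1, chr12:109540746-109540995 for the first annotated start of Meg3, chr12:109603695-109603944 for Rian and chr12:110278980-110279229 for Dio3. Capitals mark matches to the TATA box letters TATAAA, the CCAAT box, the GC box letters GGGCGG and the cAMP response element letters TGACGTCA, searched on both strands.
Dlk1: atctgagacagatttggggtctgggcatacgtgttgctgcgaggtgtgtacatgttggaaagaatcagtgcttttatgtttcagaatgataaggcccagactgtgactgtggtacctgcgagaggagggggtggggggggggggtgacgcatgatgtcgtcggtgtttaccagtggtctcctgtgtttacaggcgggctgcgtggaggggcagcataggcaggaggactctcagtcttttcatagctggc
Meg3: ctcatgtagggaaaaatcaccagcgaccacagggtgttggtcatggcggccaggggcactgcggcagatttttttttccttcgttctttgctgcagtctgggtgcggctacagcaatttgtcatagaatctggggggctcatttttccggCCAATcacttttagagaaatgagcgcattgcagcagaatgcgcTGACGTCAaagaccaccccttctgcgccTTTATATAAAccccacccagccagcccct
Rian: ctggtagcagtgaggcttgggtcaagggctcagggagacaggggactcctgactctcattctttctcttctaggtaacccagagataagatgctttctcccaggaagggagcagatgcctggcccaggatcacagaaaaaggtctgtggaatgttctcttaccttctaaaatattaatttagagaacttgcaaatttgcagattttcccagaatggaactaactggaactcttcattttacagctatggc
Dio3: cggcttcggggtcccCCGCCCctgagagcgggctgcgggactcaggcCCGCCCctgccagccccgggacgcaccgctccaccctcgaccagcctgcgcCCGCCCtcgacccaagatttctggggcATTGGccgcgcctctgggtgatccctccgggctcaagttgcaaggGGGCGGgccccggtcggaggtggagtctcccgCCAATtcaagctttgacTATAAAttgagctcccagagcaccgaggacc
The Dio3 window held 21 CG dinucleotides, more than 83.7% of the 32851 promoter windows of this length, whose median was 6. It had a TATA box 31 bases before the start, 2 CCAAT boxes and 4 GC boxes. The Meg3 window had 10 CG dinucleotides, TATAAA on both strands in overlapping letters, a CCAAT box 100 bases and a cAMP response element 57 bases before the start. The Dlk1 window had 8 CG dinucleotides and the Rian window 0, and neither held any of the 4 motifs. Of all windows, 12.4% held TATAAA, 33.8% CCAAT, 32.7% GGGCGG and 1.55% TGACGTCA.

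Values are levels, the log2 signal of a probe minus the 75th percentile of its own array. That percentile was 125 and 291 intensity units on the HP1γ-null arrays and 188 and 219 on the wild-type arrays, and 53.3% to 63.3% of an array's spots passed the scanner's background test. The label check showed the targeted gene far lower in both null pools: by probe A_51_P160328, Cbx3 had levels of -1.95 and -1.59 in HP1γ-null replicates 1 and 2, against 4.80 and 5.07 in wild-type replicates 1 and 2 (limma adjusted p = 0.044). By A_51_P117162 it had -1.24 and -2.78 in HP1γ-null, against 5.89 and 5.72 in wild type (limma adjusted p = 0.099). HP1γ-null replicate 2 stood apart. Only 4 of 10 tested germ cell markers were well above background there, against 10 of 10 on each other array, and the defining genes Dppa3, Pou5f1 and Ddx4 were not. Dppa3 had levels of 3.58 and -7.04 in HP1γ-null replicates 1 and 2, against 1.60 and -0.26 in wild-type replicates 1 and 2. Pou5f1 had 0.92 and -5.33 in HP1γ-null, against -1.73 and -3.34 in wild type, and Ddx4 had 0.66 and -6.73 in HP1γ-null, against 0.19 and -1.32 in wild type. Prdm1, the gene behind the Blimp1 reporter, had 1.48 and 0.65 in HP1γ-null, against 1.24 and 1.27 in wild type. The log2 difference between replicates had an SD over probes of 0.84 in HP1γ-null and 0.40 in wild type. The domain genes are therefore also given for each null pool on its own. The number of arrays limits the precision of all values, and 2 pools against 2 cannot reach a two-sided exact permutation p below 0.333.

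Every one of the 8 probes had a higher mean in HP1γ-null than in wild-type pools, with a median log2 difference of 2.04, against -0.06 over all tested probes. Without HP1γ-null replicate 2 that median was 0.64, with 1 probe lower, and without HP1γ-null replicate 1 it was 3.39. Of all tested probes, 41.7% had a higher mean in HP1γ-null. None of the 8 passed limma's test at an adjusted p of 0.05, with adjusted p between 0.23 and 0.88, and 0.00891% of all probes did (2 of 22440, both lower in HP1γ-null). At an unadjusted p under 0.05 limma gave 1 of the 8, Dio3, which was higher in HP1γ-null, as were 4.22% of all probes. In 7 of the 8 both null pools lay above both wild-type pools, as did 15.1% of all probes. HP1γ-null replicate 2 was the highest array for 7 of the 8 probes and for 26.4% of all tested probes. The 5 probes of Meg3 share a gene and are not independent of one another.

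**Figure D1:**
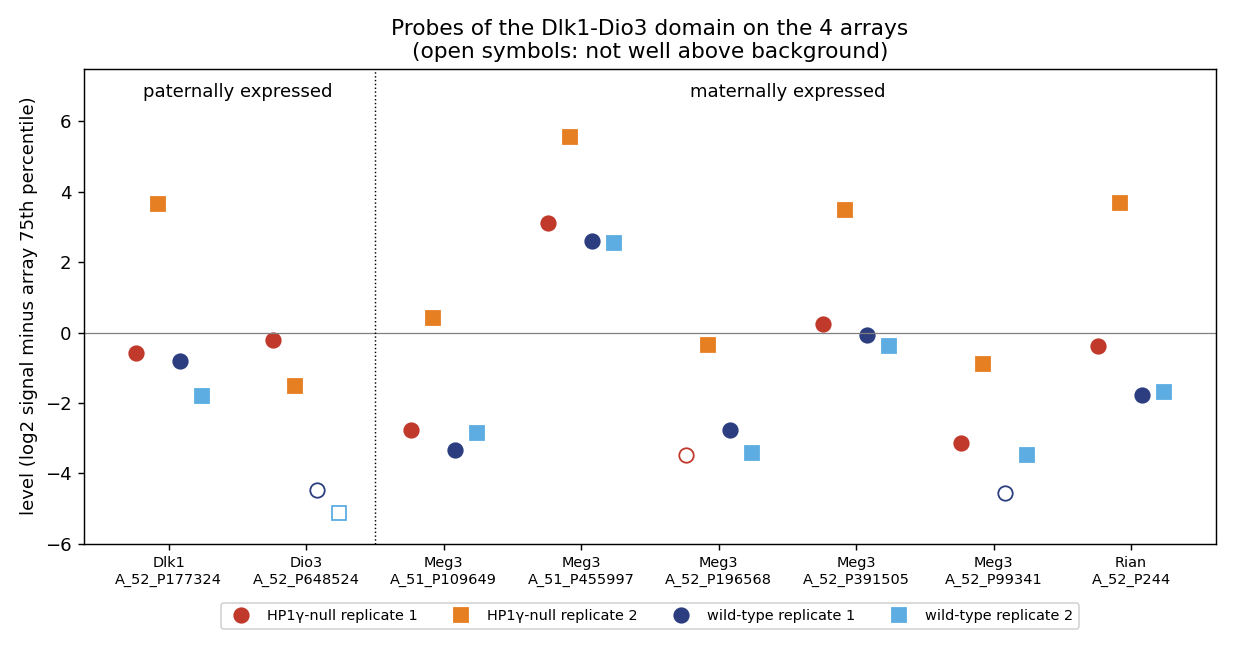
Levels of the 8 probes of the domain on the 4 arrays, as log2 signal minus the array's 75th percentile on the vertical axis, with paternally expressed genes left of the dotted line and maternally expressed genes right of it. Open symbols are not well above background. HP1γ-null replicate 2 (orange squares) is the highest point of every probe except that of Dio3, where HP1γ-null replicate 1 is highest at -0.20.

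Of the paternally expressed genes, Dlk1 had levels of -0.57 and 3.66 in HP1γ-null replicates 1 and 2, against -0.80 and -1.81 in wild-type replicates 1 and 2 (probe A_52_P177324). One null pool was far above the other arrays, and the other lay just above the higher wild-type pool. The means were 1.54 ± 2.99 in HP1γ-null and -1.30 ± 0.71 in wild type (SD, n = 2 each), a 7.20-fold difference (log2 difference 2.85, SE 1.47, limma adjusted p = 0.76). Taken singly, HP1γ-null replicate 2 was 31.2-fold and HP1γ-null replicate 1 1.66-fold above the wild-type mean. The null pools differed from each other by 4.23 on the log2 scale, a gap that 0.370% of probes match or exceed. The difference between genotypes was smaller than that gap.

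Dio3 had levels of -0.20 and -1.51 in HP1γ-null replicates 1 and 2, against -4.46 and -5.14 in wild-type replicates 1 and 2 (probe A_52_P648524). It was well above background in both null pools and in neither wild-type pool, and the groups did not overlap. Before scaling its signals were 108 and 102 units in HP1γ-null replicates 1 and 2. The gap between its null pools, and so their order, therefore rests mostly on the 75th percentiles of 125 and 291 units. HP1γ-null was 8.21-fold higher with each wild-type array set to a floor. The floor was the higher of the probe's signal and the lowest signal of any spot well above background on that array. The measured means were -0.86 ± 0.93 in HP1γ-null and -4.80 ± 0.48 in wild type (SD, n = 2 each), and the difference did not pass the test (fitted log2 difference 3.94, SE 0.53, limma adjusted p = 0.23). The fitted value rests on wild-type signal that is not above background. The floored value depends on the background correction and is not a limit specific to this probe. Scaled to the spiked-in control RNA in place of the 75th percentile, the fitted difference was 3.40 with a limma adjusted p of 0.0016, and 0.468% of all probes were called higher there. With no filter on dim probes the limma adjusted p was 0.84. Since the filter kept Dio3 only through the pools in which it is high, the pass under spike-in scaling is not independent of that choice. That scaling moved the median difference of all probes to -0.60. After normexp background correction with an offset of 50 intensity units the difference was 1.25 (limma adjusted p = 0.82). That offset was larger than the Dio3 signals of 8.49 and 6.22 units in wild-type replicates 1 and 2.

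Of the maternally expressed genes, Meg3 was brightest by probe A_51_P455997, with levels of 3.11 and 5.55 in HP1γ-null replicates 1 and 2, against 2.60 and 2.54 in wild-type replicates 1 and 2. The wild-type pools were nearly equal, HP1γ-null replicate 1 lay a little above them and HP1γ-null replicate 2 far above. The means were 4.33 ± 1.72 in HP1γ-null and 2.57 ± 0.05 in wild type (SD, n = 2 each), a 3.38-fold difference (log2 difference 1.76, SE 0.84, limma adjusted p = 0.75). HP1γ-null replicate 2 was 7.88-fold and HP1γ-null replicate 1 1.45-fold above the wild-type mean, and the difference between genotypes was smaller than the gap between the null pools.

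The other Meg3 probes had the same highest array. By A_52_P391505 the levels were 0.23 and 3.49 in HP1γ-null replicates 1 and 2, against -0.06 and -0.38 in wild-type replicates 1 and 2. By A_51_P109649 they were -2.78 and 0.41 in HP1γ-null, against -3.33 and -2.85 in wild type, and by A_52_P99341 -3.15 and -0.91 in HP1γ-null, against -4.57 and -3.49 in wild type, where replicate 1 was not well above background. In these 3 probes both null pools lay above both wild-type pools, with HP1γ-null replicate 1 close to them. By A_52_P196568 the levels were -3.48 and -0.34 in HP1γ-null, against -2.76 and -3.43 in wild type. There HP1γ-null replicate 1 was not well above background and lay lowest, so the genotypes overlapped, and without HP1γ-null replicate 2 the difference turned to -0.39. Over the 5 probes the log2 difference between genotypes ran from 1.18 to 2.08. HP1γ-null replicate 2 was 2.75 to 3.71 above the wild-type mean on the log2 scale, and HP1γ-null replicate 1 was between 0.39 below and 0.88 above it.

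Rian had levels of -0.39 and 3.68 in HP1γ-null replicates 1 and 2, against -1.77 and -1.69 in wild-type replicates 1 and 2 (probe A_52_P244). Both null pools lay above both wild-type pools, which differed little from each other. The means were 1.65 ± 2.88 in HP1γ-null and -1.73 ± 0.06 in wild type (SD, n = 2 each), a 10.4-fold difference (log2 difference 3.38, SE 1.38, limma adjusted p = 0.69). HP1γ-null replicate 2 was 42.6-fold and HP1γ-null replicate 1 2.53-fold above the wild-type mean. Without HP1γ-null replicate 2 the log2 difference was 1.34 (limma adjusted p = 0.089). The null pools lay 4.07 apart, a gap larger than the difference between genotypes and matched or exceeded by 0.419% of probes.

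The brightest probes of Meg3 and Rian were set against those of Dlk1 and Dio3, each centred on its mean over the 4 arrays so that probes could be averaged. The maternally expressed pair averaged -0.34 and 2.91 in HP1γ-null replicates 1 and 2, against -1.29 and -1.28 in wild-type replicates 1 and 2. The paternally expressed pair averaged 0.97 and 2.43 in HP1γ-null replicates 1 and 2, against -1.28 and -2.12 in wild-type replicates 1 and 2. The paternal average of HP1γ-null replicate 1 joined Dlk1 at -0.69, near its -0.92 in wild-type replicate 1, and Dio3 at 2.63, and the paternal wild-type averages include Dio3 signal that was not above background. Maternal minus paternal was -1.31 and 0.48 in HP1γ-null replicates 1 and 2, against -0.01 and 0.84 in wild-type replicates 1 and 2, so the genotypes overlapped. The median log2 difference between genotypes was 2.57 for the maternally and 3.39 for the paternally expressed genes, or -0.83 as maternal minus paternal. With Dio3 at its floored value the paternal median was 2.94 and the difference -0.38, and with Dlk1 as the only paternally expressed gene the difference was -0.28. The -0.83 reversed to 0.069 without HP1γ-null replicate 1. It reversed to 0.40 after another background correction (normexp), whose offset of 50 intensity units was above the wild-type signals of Dio3. The arrays do not read alleles, so from which parental chromosome the signal came was not measured.

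Genes on either side of the imprinted domain showed smaller differences. Of 13 listed neighbours 11 were tested, and limma called none at an adjusted p of 0.05. By limma 1 of the 11 had an unadjusted p under 0.05, as did 7.51% of all probes. In HP1γ-null 4 had a higher and 7 a lower mean, against 41.7% and 58.3% of all probes. The median log2 difference was -0.10 (-0.19 to 0.027 with each pool left out), with a range from -0.39 to 0.76. On the Dlk1 side, the log2 difference was 0.04 for Evl, an actin regulator, -0.26 for Yy1, a zinc finger transcription factor, -0.10 each for the mitochondrial carrier genes Slc25a29 and Slc25a47 and for Wars, which encodes tryptophanyl-tRNA synthetase, and -0.09 for Wdr25. On the Dio3 side it was -0.39 for Ppp2r5c, a regulatory subunit of protein phosphatase 2A, -0.14 for Dync1h1, the dynein heavy chain, 0.18 for the chaperone gene Hsp90aa1, 0.02 for Wdr20 and 0.76 for the kinase gene Mok. Mok had levels of -0.54 and -0.93 in HP1γ-null replicates 1 and 2, against -1.30 and -1.69 in wild-type replicates 1 and 2 (limma adjusted p = 0.63). Slc25a47 had levels of -2.95 and -0.40 in HP1γ-null replicates 1 and 2, below and above the wild-type levels of -1.58 and -1.57. HP1γ-null replicate 2 was the highest array for 4 of the 11 neighbours and for 26.4% of all tested probes. Whether the domain genes differ from their neighbours was not tested.

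**Figure D2:**
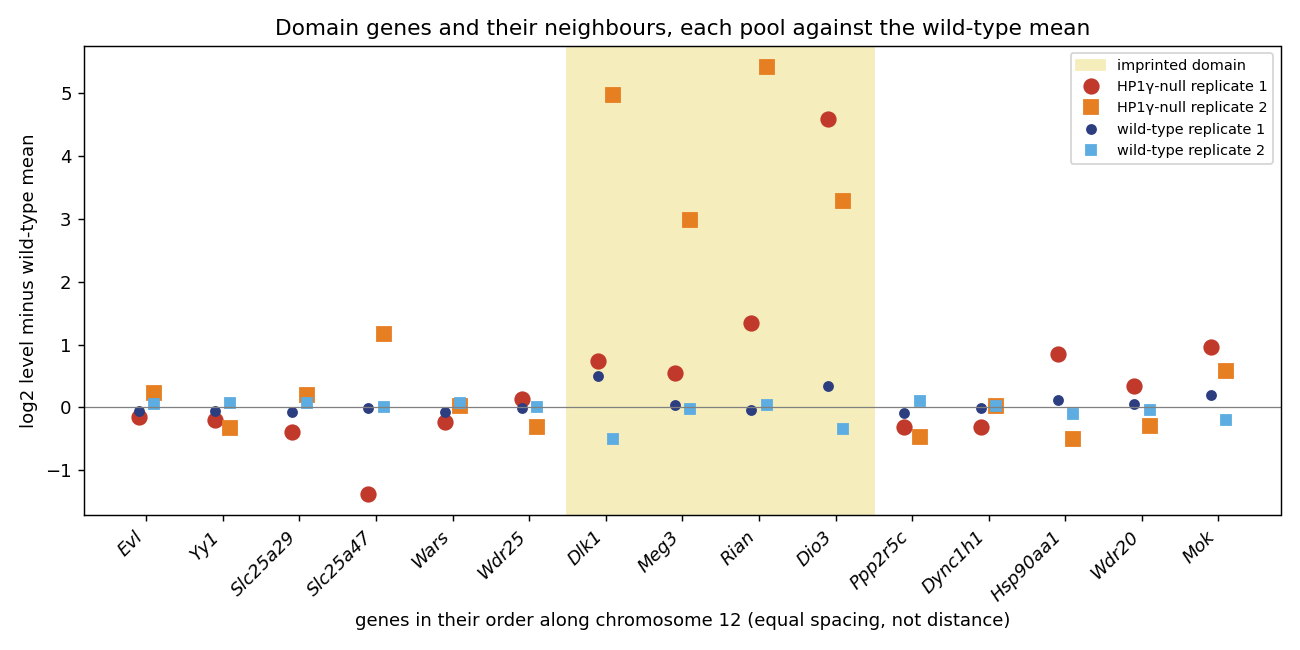
Domain genes (shaded) and their tested neighbours in chromosomal order, with each pool's level minus the wild-type mean on the vertical axis (log2 scale, brightest probe of a gene). HP1γ-null replicate 2 stands 4.96 above the wild-type mean for Dlk1, 2.98 for Meg3 and 5.41 for Rian, and both null pools stand high for Dio3, whereas the neighbours' null pools lie between -1.37 and 1.17, both values being of Slc25a47.

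Markers of other cells also differed between the pools, and in bulk samples fewer cells of a type and less RNA per cell cannot be told apart. Sums of linear signal over the array's 75th percentile are given for whole marker lists. The 10 stromal genes, all well above background on every array, summed to 12.7 and 88.4 in HP1γ-null replicates 1 and 2, against 25.6 and 10.8 in wild-type replicates 1 and 2. Of these, 9 of 10 were highest in HP1γ-null replicate 2, as were 26.4% of all tested probes. This list, Dlk1, Meg3 and Rian therefore shared their highest array. The 10 tested germ cell genes summed to 33.5 and 5.52 in HP1γ-null replicates 1 and 2, against 12.8 and 7.29 in wild-type replicates 1 and 2, and 9 of 10 were lowest in HP1γ-null replicate 2. In HP1γ-null replicates 1 and 2 the 5 tested gonadal soma genes summed to 5.87 and 10.3, against 4.24 and 2.98 in wild type. HP1γ-null replicate 2 was the highest array for 4 of these 5 as well, so that order was not particular to stroma. The defining genes Gata4, Nr5a1, Lhx9, Emx2 and Tcf21 were not well above background on both arrays of either genotype.

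The mesonephric list had the array order of Dio3 in its sum. Its 4 tested genes summed to 27.3 and 9.10 in HP1γ-null replicates 1 and 2, against 2.20 and 1.63 in wild-type replicates 1 and 2. Of the 4, 3 had a higher and 1 a lower mean in HP1γ-null, against 41.7% and 58.3% of all probes. Only 1 of the 4 was highest in HP1γ-null replicate 2. In HP1γ-null replicate 1, 3 of the 4 were well above background. The keratin genes Krt8 and Krt18 made up most of the sum, and the defining genes Pax2, Pax8 and Lhx1 were not well above background on both arrays of either genotype. Krt8 had levels of 2.61 and 1.09 in HP1γ-null replicates 1 and 2, against -2.19 and -2.02 in wild-type replicates 1 and 2 (limma adjusted p = 0.24). The 12 endothelial genes summed to 208 and 274 in HP1γ-null, against 368 and 407 in wild type. All 12 had a lower mean in HP1γ-null, as did 58.3% of all probes. In 11 of the 12 both null pools lay below both wild-type pools, as in 5166 of the 22440 tested probes. The 9 leukocyte genes summed to 298 and 243 in HP1γ-null, against 295 and 343 in wild type, and the 3 tested erythroid genes to 2.31 and 3.03 in HP1γ-null, against 2.67 and 3.26 in wild type. The part of these markers in the values of the domain genes was not tested.

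**Figure D3:**
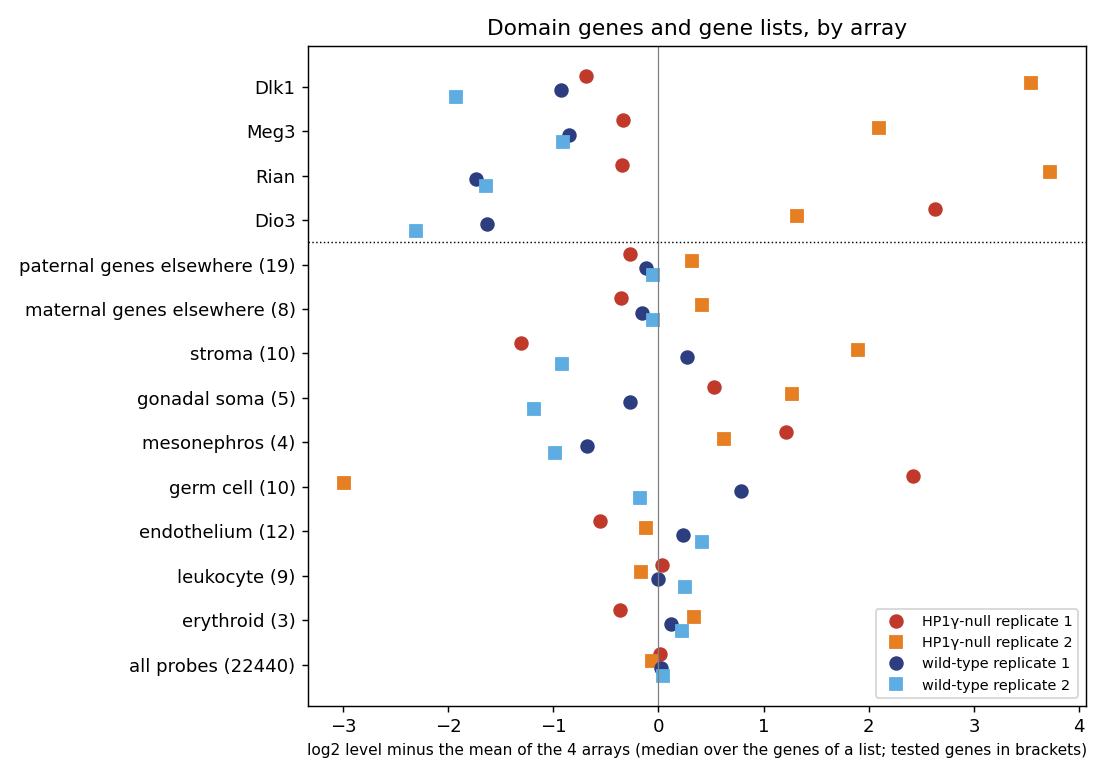
Centred levels of the 4 domain genes and median centred levels of imprinted genes elsewhere and of cell type markers, by array (horizontal axis, log2 level minus the mean of the 4 arrays, with the number of tested genes in brackets). Dlk1, Meg3, Rian and the stromal median are highest in HP1γ-null replicate 2, and the germ cell median is lowest there. The medians of gonadal soma, of erythroid genes and of both lists of imprinted genes elsewhere are also highest there. Dio3 and the mesonephric median are highest in HP1γ-null replicate 1, though 1 of the 4 mesonephric genes had a lower mean in HP1γ-null.

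Likeness of profile was measured as the root mean square difference between centred levels on the 4 arrays, over 11816 named genes with 1 probe each, and it describes these arrays only. Closest to Meg3 were Nsg2 at 0.051, Serping1 at 0.058, Nlgn2 at 0.076, Smarcd3 at 0.16 and Isl1 at 0.17. Closest to Dlk1 were Ntf5 at 0.38, Zcchc12 at 0.39, Vstm2l at 0.43, Cntfr at 0.49 and Clstn2 at 0.51. Within the domain, Rian was 0.47 from Dlk1, with 3 genes closer to Dlk1, and 1.00 from Meg3, with 1167 genes closer to Meg3. Meg3 and Dlk1 were 0.90 apart, with 36 genes closer to Dlk1 and 694 closer to Meg3. Dio3 was 2.04 from Dlk1, with 3612 genes closer to Dlk1, and 1.73 from Meg3, with 11502 closer to Meg3. Counted from Dio3, 5208 genes were closer to it than Dlk1, 2573 closer than Rian and 860 closer than Meg3. Closest to Dio3, an anchor chosen after its values were seen, were Eps8l1 at 0.28, Krt8 at 0.31, Prr36 at 0.36, Krt18 at 0.39 and Plekhd1 at 0.39. Like Dio3, Eps8l1, Prr36 and Plekhd1 were well above background in neither wild-type pool, so their distances rest partly on signal not above background. These 3 genes and Nsg2, Serping1, Isl1, Ntf5, Zcchc12 and Vstm2l passed the filter through the HP1γ-null pools alone.

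Imprinted genes elsewhere in the genome had smaller median differences than the domain genes, but the ranges overlapped, and whether they differ was not tested. Of 19 tested paternally expressed genes 11 had a higher and 8 a lower mean in HP1γ-null. Their median log2 difference was 0.17, with a range from -0.61 to 2.77, the highest being Usp29. Of 8 tested maternally expressed genes 6 had a higher and 2 a lower mean. Their median was 0.33, with a range from -0.39 to 3.25, the highest being Zim1. Over all probes 41.7% had a higher mean. HP1γ-null replicate 2 was the highest array for 13 of the 19 and 6 of the 8, and for 26.4% of all tested probes. Of the domain genes it was highest for Dlk1, Meg3 and Rian but not for Dio3. Limma called none in either list. At an unadjusted p under 0.05 it gave 5 of the 19 (4 higher and 1 lower in HP1γ-null) and 1 of the 8 (higher), against 7.51% of all probes. The paternal median was -0.09 without HP1γ-null replicate 2 and 0.43 without HP1γ-null replicate 1, and the maternal median was -0.19 and 0.53. Magel2, a ubiquitin ligase regulator of the Prader-Willi region, had levels of -1.66 and -1.23 in HP1γ-null replicates 1 and 2, against -3.07 and -3.35 in wild-type replicates 1 and 2 (limma adjusted p = 0.26). Usp29, which lies beside Peg3, was not well above background in either wild-type pool. With the wild-type arrays floored as for Dio3, it was 2.71-fold higher in HP1γ-null (limma adjusted p = 0.30 for the fitted difference). Zim1, a maternally expressed gene of the same Peg3 cluster, had levels of -1.65 and -0.19 in HP1γ-null replicates 1 and 2. Its levels in wild-type replicates 1 and 2 were -2.90 and -5.44, the latter not well above background (limma adjusted p = 0.61 for the difference). Slc22a18, a maternally expressed transporter gene, had a log2 difference of 0.57 (limma adjusted p = 0.67).

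Genes that maintain or erase imprints had log2 differences from -0.36 to 0.50. Of 16 tested, 9 had a higher and 7 a lower mean in HP1γ-null, against 41.7% and 58.3% of all probes. The median log2 difference was 0.05 and lay at 0.10 or lower with each pool left out. Limma called none, with 0 at an unadjusted p under 0.05, against 7.51% of all probes. Trim28, the corepressor recruited by imprint-binding zinc finger proteins, had levels of 3.46 and 3.93 in HP1γ-null replicates 1 and 2, against 3.28 and 3.12 in wild-type replicates 1 and 2 (limma adjusted p = 0.75). The de novo methyltransferase gene Dnmt3a had levels of 2.51 and 2.90 in HP1γ-null, against 2.36 and 2.26 in wild type (limma adjusted p = 0.79).

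Partners of the protein products were also read. Of 7 tested Notch pathway genes 3 had a higher and 4 a lower mean in HP1γ-null, against 41.7% and 58.3% of all probes. Their median log2 difference was -0.38 and ran from -0.46 to -0.08 with each pool left out. The receptor gene Notch1 had levels of 1.33 and 1.29 in HP1γ-null replicates 1 and 2, against 1.61 and 1.77 in wild-type replicates 1 and 2 (limma adjusted p = 0.76), and Adam17, a sheddase that releases the Dlk1 ectodomain, had 2.26 and 1.76 in HP1γ-null, against 2.53 and 2.58 in wild type (limma adjusted p = 0.73). Of 8 thyroid hormone genes 4 were tested, and all 4 had a lower mean in HP1γ-null, as did 58.3% of all probes, with a median log2 difference of -0.19 that ran from -0.39 to -0.18 with each pool left out. The transporter gene Slc16a10 had levels of -0.26 and -0.75 in HP1γ-null, against -0.21 and 0.30 in wild type (limma adjusted p = 0.78), and the receptor gene Thra had 1.67 and 2.21 in HP1γ-null, against 2.21 and 2.09 in wild type (limma adjusted p = 0.92). Dio1 and Dio2, the other deiodinase genes, were not well above background on both arrays of either genotype. In both lists limma called none, with 0 at an unadjusted p under 0.05, against 7.51% of all probes.

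**Figure D4:**
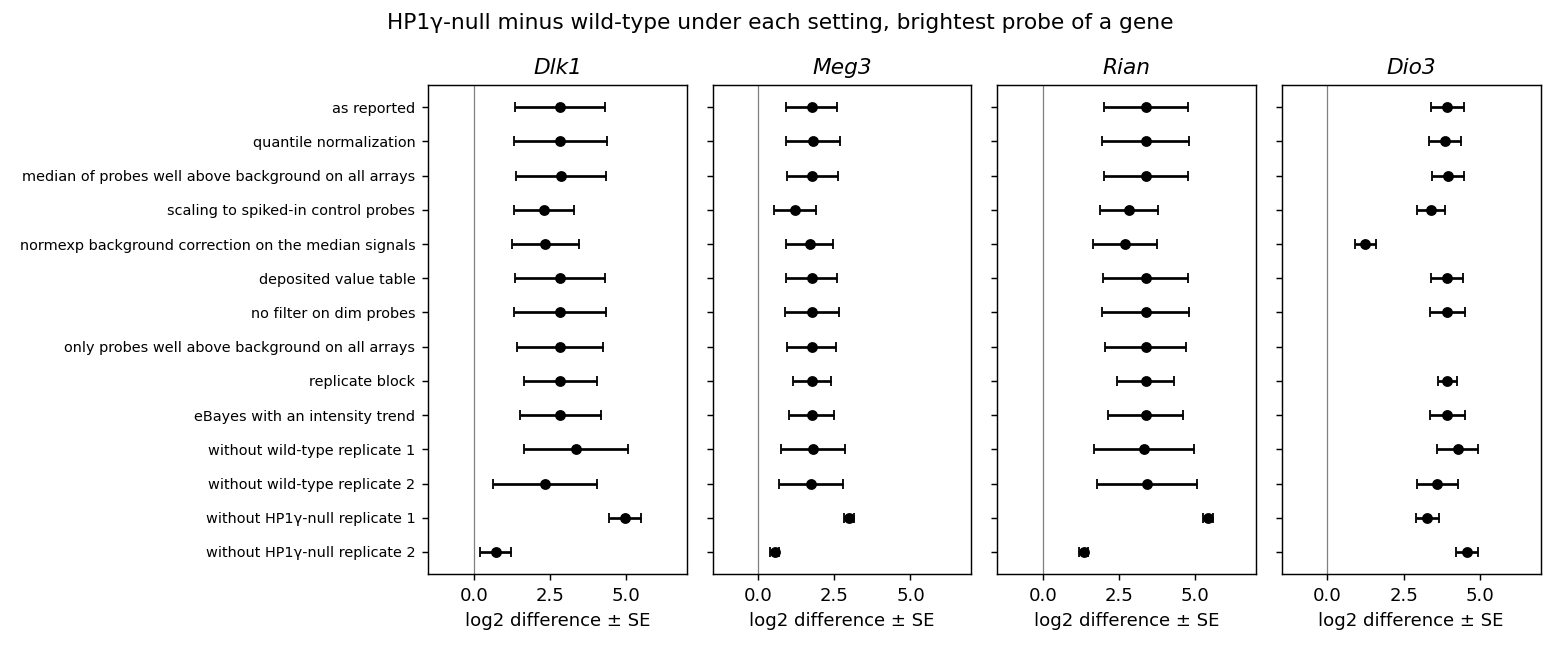
Log2 difference HP1γ-null minus wild type (horizontal axis, with SE) of the brightest probe of each measured domain gene under the settings named on the vertical axis. Leaving out HP1γ-null replicate 2 brings Dlk1 to 0.73, Meg3 to 0.54 and Rian to 1.34, whereas Dio3 stands at 4.60 without it and at 1.25 after normexp, and has no point where only probes well above background on all arrays were kept.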

How the data were processed

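Gene expression was measured on 4 one-colour Agilent arrays, per the labels from 4 ng of total RNA per pool, amplified and labelled with Cy3. Per the file headers, the deposited intensity values came from Agilent Feature Extraction 10.7.3.1, with background subtracted and arrays left unscaled. The deposited table of the authors equals that processed signal rounded, differing by at most 0.497%, with column medians of 14.5 and 33.4 in HP1γ-null and 20.6 and 22.6 in wild type. It is linear and not centred.

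Computed here were log2 values of the deposited signal minus the array's 75th percentile over the 43379 noncontrol spots. Replicate spots were averaged per probe, and spots marked as outliers were left out, which removed 21 probes. No spot of a domain probe was saturated. Accessions matched RefSeq names (GRCm38.p6) for 26888 of 41174 probes, and 14286 were not named. The array was designed on another build, so no probe coordinates are given. For lists, the brightest probe of a gene was used. Genotypes were compared over 22440 probes in R 4.3.3 by limma 3.58.1 (a linear fit and eBayes, no trend, two-sided p adjusted by Benjamini-Hochberg), and tables were made with Python 3.11.15. All arrays lay on 1 slide. The script was tested on simulated data.

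The members, gene lists and tests were chosen with earlier results of these data known. Named with values are all member probes, Cbx3, the 5 genes most like Meg3, Dlk1 and (added after seeing its values) Dio3, all tested neighbours, Dppa3, Pou5f1, Ddx4 and Prdm1 for germ cells and, per pathway or imprinted list, the 2 genes with the smallest unadjusted p. Listed markers that were not tested are named without values. Other lists are described by counts and medians only. Alternatives covered scaling, background correction, filters, a replicate block, an intensity trend and leaving out each pool. Normexp was run with an offset of 50 intensity units. It used median signals, chosen after seeing that the spot tables give no mean signals.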

Additional observations from a re-analysis of the deposited data

How the results depend on the processing

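Of 101 values of the 8 domain probes under 13 alternatives, 100 kept a higher level in HP1γ-null and 99 also kept their side of the threshold. The exceptions were Dio3, which passed only with spike-in scaling (log2 difference 3.40, limma adjusted p = 0.0016, with a range of 0.0016 to 0.84 over its alternatives), and Meg3 by A_52_P196568, which reversed to -0.39 without HP1γ-null replicate 2 (range with each pool left out, -0.39 to 2.75). Limma called 2 probes over the array as reported, 133 with spike-in scaling (105 higher and 28 lower), 13 with the replicate block, 7 with an intensity trend, 1 with only probes well above background on all arrays and 0 with no filter (1474 at an unadjusted p under 0.05). Leaving out each pool in turn gave 0 calls by limma every time, and the number at an unadjusted p under 0.05 lay between 716 and 5602. Pools of the same number deviated together at a correlation of 0.066 over probes and only share a number in the labels, and under the replicate block no domain probe passed (Dio3 limma adjusted p = 0.060). The median of the paternally expressed genes moved to 1.80 after normexp. Maternal minus paternal reversed to 0.40 after normexp and to 0.069 without HP1γ-null replicate 1. With each pool left out, the maternal median ran from 0.94 to 4.19, the paternal from 2.66 to 4.13 and their difference from -1.72 to 0.069. The cause of these shifts was not tested. Dio3 had no value with only probes well above background on all arrays, and normexp on mean signals was not run.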
